A study of Mus musculus with 5 samples.

Results

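The genes described here are 34 mouse genes of the lysosome: 10 glycosidases, 3 sulfatases, 4 lipid hydrolases, 2 sphingolipid activator precursors, 9 proteases, 5 membrane and cholesterol-export proteins and the transcription factor gene Tfeb. They were taken by symbol from the 52143 rows of the expression table, and each symbol occurred once. RNA had been sequenced from colon tumors collected on day 87, in 2 Control and 3 SIGLEC12 samples, named below by the replicate numbers of their labels (Control 1 and 4, SIGLEC12 2, 3 and 4). SIGLEC12 mice (SIGLEC12-Villin1-Cre-ERT) carried a conditional knock-in of human SIGLEC12, a gene of the Siglec family of lectins whose human product has lost sialic acid binding, switched on in intestinal epithelium by a villin-driven, tamoxifen-inducible Cre, and Control mice (Villin-Cre-RT in the labels) carried the Cre without the knock-in. Every mouse was 8 weeks old at the start and received tamoxifen for 5 days, azoxymethane (AOM, a carcinogen) at 10 mg/kg, and 4 cycles of 2.0% dextran sodium sulfate (DSS, which injures the colon epithelium) for 5 days, with 14 days of recovery. The table has no row for human SIGLEC12, so the expression of the transgene could not be set against the labels. The question addressed was how the tumors' lysosomal transcripts compared between mice with and without SIGLEC12 in the epithelium.

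Lysosomes are acidic organelles that break down glycans, lipids and proteins delivered by endocytosis, phagocytosis and autophagy. Their soluble hydrolases are tagged with mannose 6-phosphate in the Golgi, carried to the lysosome by sorting receptors and often matured by cathepsins, while heavily glycosylated membrane proteins such as LAMP1 and LAMP2 line the limiting membrane. Many of these genes hold an E-box (CACGTG and longer forms of it, known as CLEAR elements) near their start, to which TFEB and its relatives bind, and both macrophages and intestinal epithelial cells use them heavily.

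To show what the promoters of these genes look like, the 300-base windows of RefSeq (GRCm38.p6, 250 bases before to 50 after each annotated start) were searched on both strands for CACGTG, which is its own reverse complement. Windows were given for 29 of the 34 genes, and 10 of those 29 genes held the core: Arsa, Ctsa, Ctsd, Ctsl, Gaa, Gla, Glb1, Lamp1, Lgmn and Naglu. Counted over windows, 10 of 34 (29.4%) held it, beside 7.15% of all 32851 promoter windows. The longer form TCACGTGA, which contains the core, was in Ctsa, Ctsd and Gla (8.82% of the 34 windows, 0.974% of all windows), and the full CLEAR palindrome of 10 bases was in 0 of them (0.326% of all windows). Parts of 5 windows that overlap no annotated exon are printed here because they show the range from 4 copies in Lamp1 to 1 copy in the others, with the core in capitals and the strand of the gene read 5′ to 3′. They lie at chr8:13159081-13159160 (plus strand), chr9:114400998-114401057 (plus), chr11:119267793-119267852 (plus), chr12:102439113-102439172 (minus, before an alternative start within the gene) and chr15:89477426-89477484 (minus).
Lamp1: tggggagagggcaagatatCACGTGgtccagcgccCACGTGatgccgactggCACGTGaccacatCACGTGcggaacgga
Glb1: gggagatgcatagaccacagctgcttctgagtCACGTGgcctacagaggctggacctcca
Gaa: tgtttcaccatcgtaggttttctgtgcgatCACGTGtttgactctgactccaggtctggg
Lgmn: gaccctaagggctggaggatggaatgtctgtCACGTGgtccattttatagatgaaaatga
Arsa: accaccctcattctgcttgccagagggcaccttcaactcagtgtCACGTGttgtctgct
A match is a run of letters, not a measured binding site.

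Levels in the table are log2(TPM + 1), and TPM (transcripts per 1000000) is a share of all RNA in a library, corrected for transcript length. Protein-coding genes took only 5.70% and 6.73% of the TPM in Control 1 and 4, against 8.84%, 8.74% and 9.71% in SIGLEC12 2, 3 and 4, so any protein-coding gene tended to read higher in SIGLEC12. Each measurement is therefore given on 2 scales, as deposited and after every sample was scaled to the same protein-coding total (rescaled). The scaling shifted the median log2 fold change of the 10338 genes tested (TPM of at least 1 in at least 2 samples) from 0.38 to 0.0088. Fold changes are SIGLEC12 minus Control on the log2(TPM + 1) scale, which understates the change of genes of low level.

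Among the 34 genes, transcripts of every role were present in every tumor, and the most abundant on average were Lamp1, Psap, Ctsd, Lamp2 and Ctss. As deposited, each of the 34 means was higher in SIGLEC12 tumors, under a filter that all 34 met (mean TPM of at least 0.5 over the 5 samples, 12254 genes), where 85.8% of all genes had a higher mean. For 31 of the 34 the SIGLEC12 samples all lay above both Control samples, and the exceptions were Npc1, Tfeb and Ctss. Of all genes 51.3% had groups separated in that direction. Arsa (mean TPM 0.396 in Control, 0.606 in SIGLEC12) and Gla (0.488, 0.872) met the filter only through SIGLEC12. Both are among the 34 means and the 31 separated genes, where they carry no weight. At an unadjusted p under 0.05 (limma), 27 of the 34 were higher and 0 lower, beside 30.1% and 0.955% of all genes, and the median log2 fold change was 0.68 beside 0.34 over all genes. A difference of at least 2-fold on the log2(TPM + 1) scale was reached by 5 of the 34 (Fuca1, Asah1, Ctsz, Ctsh and Lgmn) and by 3.98% of all genes. The plain ratio of mean TPM gave another order, led by Lipa (2.82-fold), Lgmn (2.75-fold) and Gusb (2.38-fold), with Fuca1 at 1.99-fold. No gene of the 34 passed a Benjamini-Hochberg adjusted p of 0.05 (background 0.0%), whose smallest value among them was 0.0974 in limma over the 10338 genes.

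**Figure D1:**
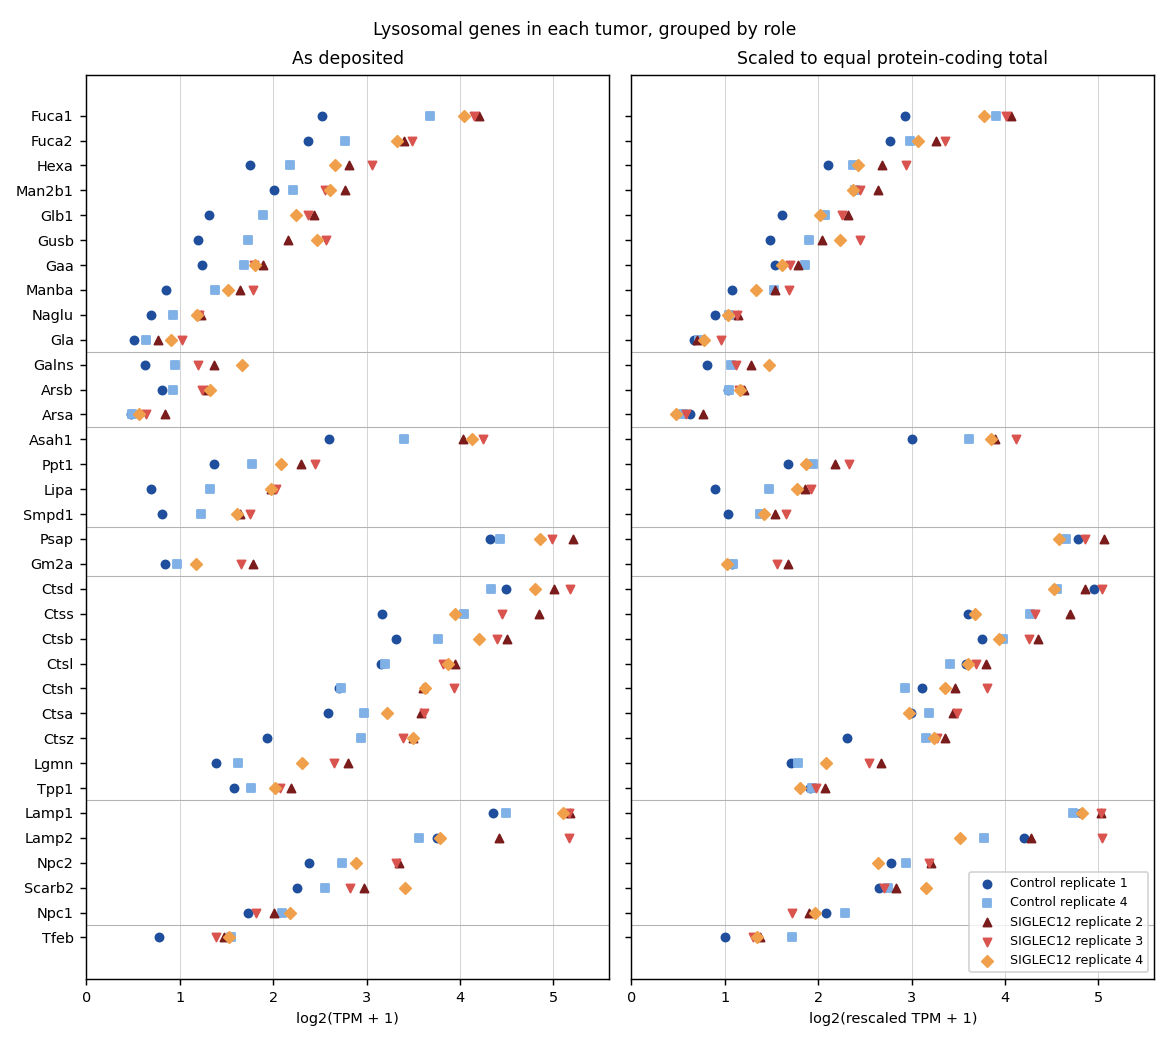
Levels of the 34 genes in each of the 5 tumors, as deposited (left, log2(TPM + 1)) and after scaling to the same protein-coding total (right), 1 point per sample and lines between roles. On the left the SIGLEC12 points lie above both Control points in 31 genes, and on the right in 13.

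After rescaling, the lysosomal genes still lay above the middle of all genes, but with far less separation between the groups. The median log2 fold change of the 34 was 0.25 beside -0.0023 over the 12254 genes, and the mean was higher in SIGLEC12 for 31 of them, beside 49.7% of all genes. Arsa and Gla, which met this filter only through SIGLEC12, are among those 31. The 3 with a lower mean were Npc1 (-0.32), Tfeb (-0.015) and Gaa (-0.0018). At an unadjusted p under 0.05, 5 were higher (background 4.15%) and 0 lower (6.37%): the protease genes Lgmn and Ctsh, the lipid hydrolase genes Lipa and Asah1, and the glycosidase gene Gusb. The groups were separated upward in 13 (14.5% of all genes) and downward in Npc1 alone (17.4%). The smallest adjusted p among them was 0.474 in this fit and 0.456 in the fit of 10338 genes (limma, rescaled). With 2 against 3 samples an exact permutation test has 10 splits and cannot go below p = 0.1, so no single gene could reach 0.05 in it.

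**Figure D2:**
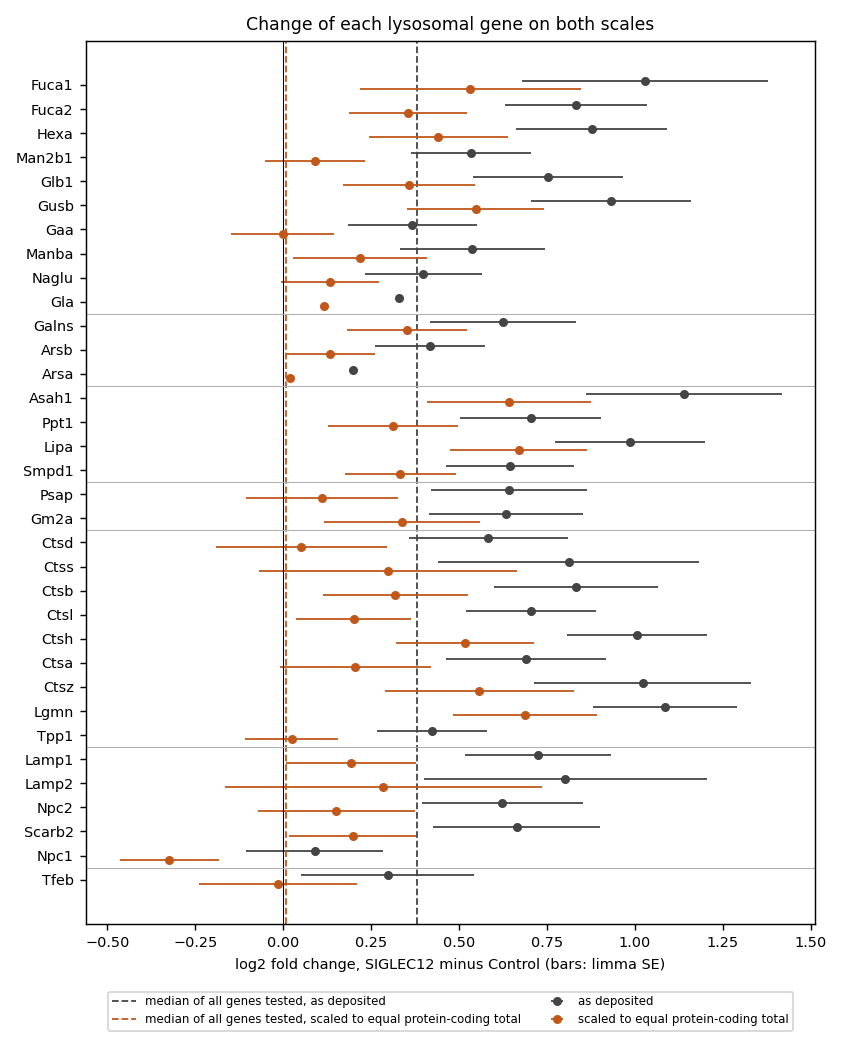
Log2 fold change of each of the 34 genes with its limma standard error, as deposited (grey) and rescaled (orange), with dashed lines at the median of all genes tested (0.38 and 0.0088). Arsa and Gla did not pass the filter and are drawn without an error bar, and Npc1 is the gene farthest to the left on both scales.

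The samples of a group were not alike. Control 1 was the lowest of the 5 samples in 32 of the 34 genes as deposited and in 21 after rescaling. SIGLEC12 4, in turn, was the lowest of the 5 in 9 genes after rescaling (Man2b1, Arsa, Psap, Gm2a, Ctsa, Ctsd, Tpp1, Lamp2 and Npc2), while SIGLEC12 2 was the highest in 15 and SIGLEC12 3 in 14. Summed, the 34 genes took 0.274% and 0.298% of protein-coding TPM in Control 1 and 4, and 0.378%, 0.390% and 0.294% in SIGLEC12 2, 3 and 4. The lysosomal share was thus highest in SIGLEC12 2 and 3, and SIGLEC12 4 lay between the Control samples. In group means the share was 0.286% ± 0.0172 (SD, n = 2) and 0.354% ± 0.0525 (SD, n = 3), a ratio of 1.24. By role the ratio of the mean shares was 1.57 for lipid hydrolases, 1.33 for glycosidases, 1.31 for sulfatases, 1.22 for proteases, 1.18 for membrane and cholesterol-export proteins, 1.11 for the sphingolipid activators and 0.937 for Tfeb.

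**Figure D3:**
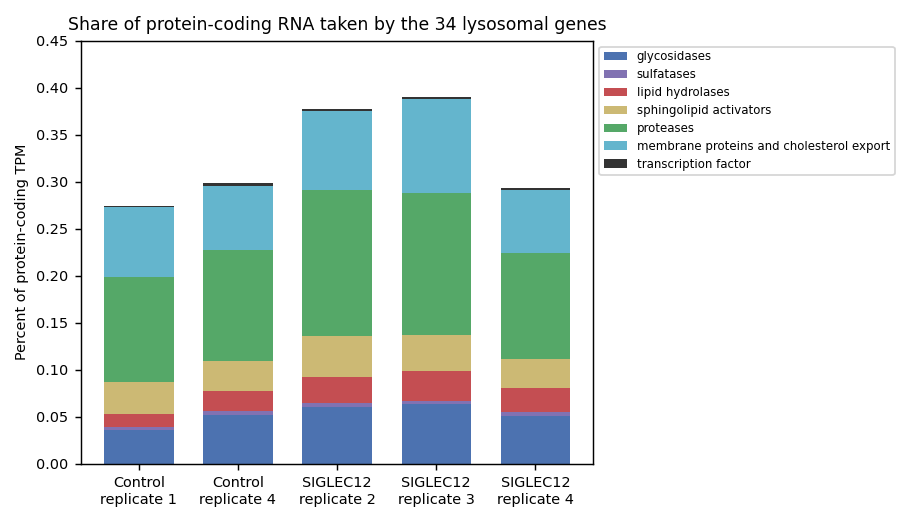
Percent of protein-coding TPM taken by the 34 lysosomal genes in each tumor, stacked by role from 0. SIGLEC12 2 and 3 reach 0.378% and 0.390%, and SIGLEC12 4 at 0.294% stands level with Control 4 at 0.298%.

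Markers of several other cell types differed between these samples. The counts below stand beside 33.4% of all 10338 genes higher at an unadjusted p under 0.05 as deposited and 4.46% rescaled (limma). The 15 myeloid markers took 0.0322% and 0.0162% of protein-coding TPM in Control 1 and 4 and 0.0400%, 0.0482% and 0.0149% in SIGLEC12 2, 3 and 4. SIGLEC12 2 and 3 were the highest and SIGLEC12 4 the lowest of the 5, and of the 10 tested only Cd14 had an unadjusted p under 0.05 as deposited, with none after rescaling. Cd163 was at or near 0 in all tumors. The 12 columnar epithelial markers, among them Epcam, Krt8 and Vil1, took 0.600% and 1.47% of protein-coding TPM in Control 1 and 4 and 1.39%, 1.40% and 1.93% in SIGLEC12 2, 3 and 4, and 7 of the 11 tested were higher at an unadjusted p under 0.05 as deposited (2 rescaled). The 8 squamous epithelial markers, which colon epithelium is not known for, took 4.63% in Control 1, 0.827% in Control 4 and 0.414% to 1.04% in SIGLEC12. All 8 were tested, and 1 was lower at an unadjusted p under 0.05 as deposited (Trp63) and 3 rescaled (Krt5, Trp63 and Dsg3). On both scales 0 were higher. Of all genes 0.909% were lower as deposited and 6.28% rescaled. The 8 fibroblast markers took 0.0241% and 0.0298% in Control and 0.0371% to 0.0961% in SIGLEC12, with 4 of the 7 tested higher as deposited (2 rescaled). Pdgfra, 1 of the 4 and 1 of the 2, had passed the filter only through SIGLEC12, so its count carries no weight. The 5 endothelial markers took 0.00183% and 0.00156% against 0.00243% to 0.00544%, without overlap. The shares of neutrophil, smooth muscle and T cell markers overlapped between the groups, but the summed T cell markers as deposited did not (0.415 and 0.632 TPM in Control, 0.689 to 1.36 TPM in SIGLEC12). None of the 5 endothelial or 7 T cell markers passed the filter, so both sums rest on genes of low level that were not tested. Igkc, an immunoglobulin light chain gene, was at 0.655 and 1.76 TPM in Control 1 and 4 and at 24.9, 3.09 and 4.33 TPM in SIGLEC12 2, 3 and 4 (log2 fold change 1.95, unadjusted p = 0.0415, adjusted p = 0.133, limma). Rescaled, the fold change of Igkc was 1.61 (unadjusted p = 0.0951, adjusted p = 0.467, limma). The part of these cell types in the lysosomal values was not tested, and in bulk tissue more cells of a type and more RNA per cell cannot be told apart.

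Glycosidases strip sugars from glycoproteins and glycolipids, and the 10 genes here had fold changes of 0.33 to 1.03 as deposited and -0.0018 to 0.55 after rescaling. Gusb (chr5:129989011-130003049, GRCm38, GENCODE M21), which encodes beta-glucuronidase, had deposited levels of 1.19 and 1.74 in Control 1 and 4 and of 2.16, 2.56 and 2.47 in SIGLEC12 2, 3 and 4. All 3 SIGLEC12 tumors lay above both Control tumors, also after rescaling (1.48 and 1.91 against 2.04, 2.45 and 2.23). The log2 fold change was 0.93 ± 0.23 (SE; unadjusted p = 0.00528, adjusted p = 0.0974, limma) as deposited and 0.55 ± 0.19 (unadjusted p = 0.0315, adjusted p = 0.456) rescaled, with an exact p of 0.1 on both scales.

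Fuca1, the lysosomal alpha-L-fucosidase, had a deposited fold change of 1.03 ± 0.35, from levels of 2.52 and 3.68 in Control 1 and 4 and 4.21, 4.15 and 4.04 in SIGLEC12 2, 3 and 4. The Control samples lay further from each other than Control 4 did from any SIGLEC12 sample, and after rescaling Control 4 (3.91) stood above SIGLEC12 4 (3.77). Hexa, the alpha subunit of beta-hexosaminidase, had levels of 1.76 and 2.18 against 2.81, 3.06 and 2.66 and a fold change of 0.88 ± 0.22, or 0.44 ± 0.20 rescaled, with no overlap on either scale. Glb1, the acid beta-galactosidase, read 1.31 and 1.89 against 2.44, 2.37 and 2.25, and its groups overlapped once rescaled. Gaa, the acid alpha-glucosidase that degrades glycogen, differed by 0.37 ± 0.18 as deposited (unadjusted p = 0.0881, limma) and by -0.0018 ± 0.15 rescaled, so its higher deposited mean was no larger than that of protein-coding RNA as a whole. Of the others, Fuca2 (0.83 as deposited, 0.36 rescaled) kept its groups apart on both scales, and Man2b1 (0.53, 0.091), Manba (0.54, 0.22), Naglu (0.40, 0.13) and Gla (0.33, 0.12) did so as deposited alone. Gla, the alpha-galactosidase A, was the second lowest of the 34 at a mean of 0.718 TPM and was not tested in the fit of 10338 genes.

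The sulfatases, which remove sulfate from glycosaminoglycans and sulfatide, were among the least abundant genes. Galns, the galactosamine-6-sulfatase, read 0.62 and 0.95 in Control 1 and 4 and 1.37, 1.19 and 1.67 in SIGLEC12 2, 3 and 4, and it was one of the 2 genes with the highest rescaled value in SIGLEC12 4. Its fold change was 0.62 ± 0.21 as deposited and 0.35 ± 0.17 rescaled, without overlap on either scale. Arsb, the sulfatase for dermatan sulfate, differed by 0.42 ± 0.16 and by 0.13 ± 0.13 rescaled, with its groups apart on both scales. Arsa, the sulfatide sulfatase, was the lowest of all 34 at a mean of 0.522 TPM and differed by 0.20 and 0.019.

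The lipid hydrolases had the largest median fold change of the roles with more than 1 gene on both scales, 0.85 as deposited and 0.49 rescaled, and for 3 of the 4 the groups stayed apart after rescaling. Lipa (chr19:34492318-34527474), the acid lipase that frees cholesterol and fatty acids from lipoprotein lipids, read 0.69 and 1.32 in Control 1 and 4 and 1.97, 2.03 and 1.98 in SIGLEC12 2, 3 and 4. The SIGLEC12 tumors lay close to each other while the Control tumors were far apart, and mean TPM was 2.82-fold as high in SIGLEC12 (1.99-fold rescaled). Its fold change was 0.99 ± 0.21 (unadjusted p = 0.00296, adjusted p = 0.0974, limma), and 0.67 ± 0.19 rescaled (unadjusted p = 0.0147, adjusted p = 0.456).

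Asah1 (chr8:41340197-41374773), the acid ceramidase that splits ceramide into sphingosine and fatty acid, had a deposited fold change of 1.14 ± 0.28. Its levels were 2.60 and 3.40 in Control 1 and 4 and 4.04, 4.25 and 4.12 in SIGLEC12 2, 3 and 4, and rescaled they were 3.01 and 3.62 against 3.89, 4.12 and 3.85. The groups did not overlap on either scale, and the rescaled fold change was 0.64 ± 0.23 (unadjusted p = 0.0350, adjusted p = 0.456, limma). Smpd1, the acid sphingomyelinase that forms ceramide, differed by 0.65 ± 0.18 and by 0.33 ± 0.16 rescaled with no overlap. Ppt1, a palmitoyl-protein thioesterase, differed by 0.70 ± 0.20, and by 0.31 ± 0.18 rescaled, where SIGLEC12 4 lay between the Control samples.

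Psap and Gm2a encode the proteins that lift sphingolipids out of membranes for the hydrolases. Psap, the saposin precursor and the second most abundant gene of the set, read 4.33 and 4.43 in Control 1 and 4 and 5.21, 4.99 and 4.86 in SIGLEC12 2, 3 and 4. Once rescaled, SIGLEC12 4 (4.58) was below both Control samples (4.78 and 4.66), and the fold change went from 0.64 ± 0.22 to 0.11 ± 0.22. Gm2a, the GM2 activator that presents ganglioside to beta-hexosaminidase, read 0.85 and 0.96 against 1.79, 1.65 and 1.18, with SIGLEC12 2 and 3 well above and SIGLEC12 4 just above Control. Rescaled, SIGLEC12 4 was again the lowest (1.02).

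The 9 protease genes differed by 0.42 to 1.09 as deposited and by 0.024 to 0.69 rescaled. Lgmn (chr12:102394084-102439813), the asparaginyl endopeptidase legumain that matures cathepsins, was one of the 5 genes with a rescaled p under 0.05. It read 1.39 and 1.62 in Control 1 and 4 and 2.81, 2.66 and 2.31 in SIGLEC12 2, 3 and 4, and rescaled 1.70 and 1.78 against 2.67, 2.54 and 2.08. The Control samples were close together, the SIGLEC12 samples spread more widely, and the groups did not overlap. The fold change was 1.09 ± 0.21 (unadjusted p = 0.00146, adjusted p = 0.0974, limma) and rescaled 0.69 ± 0.20 (unadjusted p = 0.0160, adjusted p = 0.456), with mean TPM 2.75-fold as high in SIGLEC12 (1.90-fold rescaled).

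Ctsh (chr9:90054152-90076089), an aminopeptidase of the papain family, read 2.70 and 2.73 in Control 1 and 4 and 3.60, 3.93 and 3.62 in SIGLEC12 2, 3 and 4. It was one of the few members in which the Control samples nearly coincided, and its fold change was 1.01 ± 0.20 (unadjusted p = 0.00189, limma), or 0.52 ± 0.20 rescaled (unadjusted p = 0.0397, adjusted p = 0.456). Ctsz, a carboxypeptidase of the same family, read 1.93 and 2.94 against 3.49, 3.39 and 3.50. Here the SIGLEC12 samples were close to each other and Control 1 stood far below Control 4, and the fold changes were 1.02 ± 0.31 and 0.56 ± 0.27 rescaled. Ctsl, an endopeptidase, read 3.15 and 3.20 against 3.94, 3.82 and 3.87 and differed by 0.70 ± 0.18, or by 0.20 ± 0.16 rescaled, with no overlap on either scale.

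The groups of the 3 most abundant proteases overlapped after rescaling. Ctsd, the aspartic protease cathepsin D, read 4.49 and 4.33 in Control 1 and 4 and 5.00, 5.18 and 4.81 in SIGLEC12 2, 3 and 4. Rescaled, its levels of 4.95 and 4.56 and 4.85, 5.04 and 4.53 were interleaved, the fold change was 0.051 ± 0.24, and under quantile normalization it was -0.035. Ctsb, cathepsin B, differed by 0.83 ± 0.23 and by 0.32 ± 0.21 rescaled, where SIGLEC12 4 lay below Control 4. Ctss, the cathepsin that antigen-presenting cells use to process the invariant chain, read 3.17 and 4.04 against 4.85, 4.45 and 3.95, and it overlapped on both scales because Control 4 stood above SIGLEC12 4. Its fold change of 0.81 ± 0.37 had an unadjusted p of 0.0688 (limma), and rescaled it was 0.30 ± 0.37. Ctsa, the protective protein of beta-galactosidase, and Tpp1, a tripeptidyl peptidase, differed by 0.69 and 0.42 as deposited and by 0.21 and 0.024 rescaled, and both were lowest in SIGLEC12 4 on the rescaled scale.

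The membrane and cholesterol-export genes were split. Lamp1, the most abundant of the 34, read 4.35 and 4.49 in Control 1 and 4 and 5.18, 5.16 and 5.11 in SIGLEC12 2, 3 and 4, with tight groups (0.72 ± 0.21), and rescaled 4.81 and 4.72 against 5.03, 5.03 and 4.83 (0.19 ± 0.18, no overlap). Lamp2, the other major glycoprotein of the limiting membrane, spread across the SIGLEC12 samples from 3.79 in SIGLEC12 4 to 5.17 in SIGLEC12 3, beside 3.76 and 3.56 in Control 1 and 4. It had the largest standard error of the 34 (0.80 ± 0.40 as deposited, 0.28 ± 0.45 rescaled), and without SIGLEC12 3 its rescaled fold change was -0.094. Scarb2, the receptor that carries beta-glucocerebrosidase to lysosomes, differed by 0.66 ± 0.24 and by 0.20 ± 0.18 rescaled, and it was highest in SIGLEC12 4.

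Npc1 and Npc2 encode the membrane and the soluble protein that together move cholesterol out of the lysosome, and their groups were ordered differently. Npc1 read 1.73 and 2.10 in Control 1 and 4 and 2.01, 1.82 and 2.18 in SIGLEC12 2, 3 and 4 as deposited, a difference of 0.089 ± 0.20 (unadjusted p = 0.662, limma). Rescaled, it was the only gene of the 34 with every SIGLEC12 sample below both Control samples, at 1.90, 1.72 and 1.96 against 2.08 and 2.28, a difference of -0.32 ± 0.14 (unadjusted p = 0.0641, adjusted p = 0.465). Npc2 read 2.39 and 2.73 against 3.35, 3.31 and 2.89 as deposited (0.62 ± 0.23), and rescaled SIGLEC12 2 and 3 lay above and SIGLEC12 4 below both Control samples (0.15 ± 0.22).

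To compare partner genes within a sample, log2 ratios were taken for 8 pairs, on TPM + 1 as deposited, where the added 1 leaves some dependence on scaling, and on plain TPM, which has none. The log2 ratio of Npc2 to Npc1 (each as TPM + 1) was 0.65 and 0.64 in Control 1 and 4 and 1.34, 1.49 and 0.70 in SIGLEC12 2, 3 and 4. The Control samples nearly coincided and all SIGLEC12 samples were above them, SIGLEC12 4 only narrowly. The difference was 0.53 (exact permutation p = 0.2, 0.8 after adjustment over the 8 pairs). On plain TPM the groups overlapped, since SIGLEC12 4 (0.85) lay just below Control 1 (0.86), and the difference was 0.60 (exact permutation p = 0.3). The groups overlapped for the other 7: Lamp2 to Lamp1 differed by 0.077, Ctss to Ctsl by 0.11, Ctsa to Glb1 by -0.062, Fuca2 to Fuca1 by -0.20, Gm2a to Hexa by -0.24, Ctsd to Ctsb by -0.25 and Psap to Asah1 by -0.50, with adjusted exact p of 0.8 or 0.9. On plain TPM the difference for Ctsa to Glb1 was -0.25, and that for Gm2a to Hexa turned to 0.016. The signs for Npc2 to Npc1 and Psap to Asah1 held on TPM + 1 whichever sample was left out, and on plain TPM over all 5 samples.

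**Figure D4:**
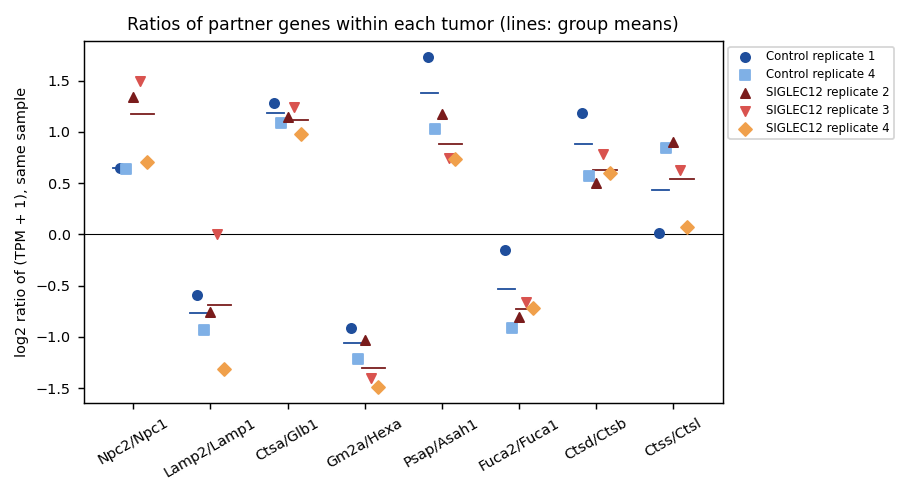
Log2 ratio of (TPM + 1) of 8 pairs of partner genes within each tumor, with short lines at the group means. The Npc2/Npc1 points of SIGLEC12 (1.34, 1.49 and 0.70) all lie above those of Control (0.65 and 0.64), and in the other pairs the groups overlap.

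Tfeb, whose product switches on lysosomal genes, was low, at 0.78 and 1.55 in Control 1 and 4 and 1.47, 1.39 and 1.53 in SIGLEC12 2, 3 and 4. Control 1 was the only sample that stood apart, and Control 4 was the highest of all. The fold change was 0.30 ± 0.25 (unadjusted p = 0.269, limma) and rescaled -0.015 ± 0.23. The 10 genes with a CACGTG core in their window had a median rescaled fold change of 0.16 (from -0.0018 for Gaa to 0.69 for Lgmn), the 19 without it 0.30, and the 5 genes for which no window was given 0.35. Genes with the core stood at both ends of the rescaled fold changes apart from Npc1 and Tfeb, with the Lgmn and Gaa stretches printed above holding 1 copy each.

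Other genes of the lysosomal system were counted in the same fits, where 33.4% of the 10338 genes had an unadjusted p under 0.05 and were higher as deposited (0.909% lower), and 4.46% higher and 6.28% lower when rescaled. Of 29 further hydrolases and cofactors 23 were tested, and 16 were higher as deposited and 0 lower, against 1 higher and 1 lower rescaled (median 0.52 and 0.16). The 3 with the smallest p were Ppt2 (0.71, rescaled 0.32), a thioesterase, Aga (0.65, 0.32), which cleaves asparagine-linked sugars, and Acp5 (0.998, 0.50), the tartrate-resistant acid phosphatase. Of 14 further membrane proteins tested, 6 were higher and 0 lower, and 2 higher and 2 lower rescaled (median 0.54 and 0.11). The tetraspanin gene Cd63 read 3.60 and 4.49 in Control 1 and 4 and 5.20, 5.56 and 5.40 in SIGLEC12 2, 3 and 4, with fold changes of 1.34 and 0.81 rescaled, and no overlap. Tmem192 (0.83, 0.45) had a smaller p than Cd63, and Slc17a5 (0.63, 0.33), the sialic acid exporter, was the third by p.

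Genes for delivery to and acidification of the lysosome had smaller median fold changes than the hydrolases on both scales. Of 8 mannose 6-phosphate tagging and sorting genes tested, 2 were higher as deposited, Gnptg (0.57, rescaled 0.21) and M6pr (0.60, 0.10), and rescaled 0 were higher and 2 lower (median 0.29 and -0.043). Of 16 listed genes of the V-ATPase, the proton pump of the lysosome, 8 were higher and 0 lower as deposited, and 0 higher and 1 lower rescaled (median 0.45 and -0.037), led by Atp6v1f (1.02, 0.53). Of 13 genes for relatives and regulators of TFEB and the lysosomal mTORC1 scaffold, 7 were higher as deposited, and rescaled 0 were higher and 1 lower (median 0.40 and 0.0055), led by Lamtor1 (0.83, 0.32). Set against medians of 0.70 and 0.29 for the 32 of the 34 genes in the same fit, of which 4 (Naglu, Arsb, Galns and Gm2a) had passed the filter only through SIGLEC12, these are descriptions, and the difference between lists was not tested. Of the other lists, Sgsh, Ctso, Nagpa, Ostm1 and Flcn had also passed only through SIGLEC12, and none of them was among the genes counted as higher.

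**Figure D5:**
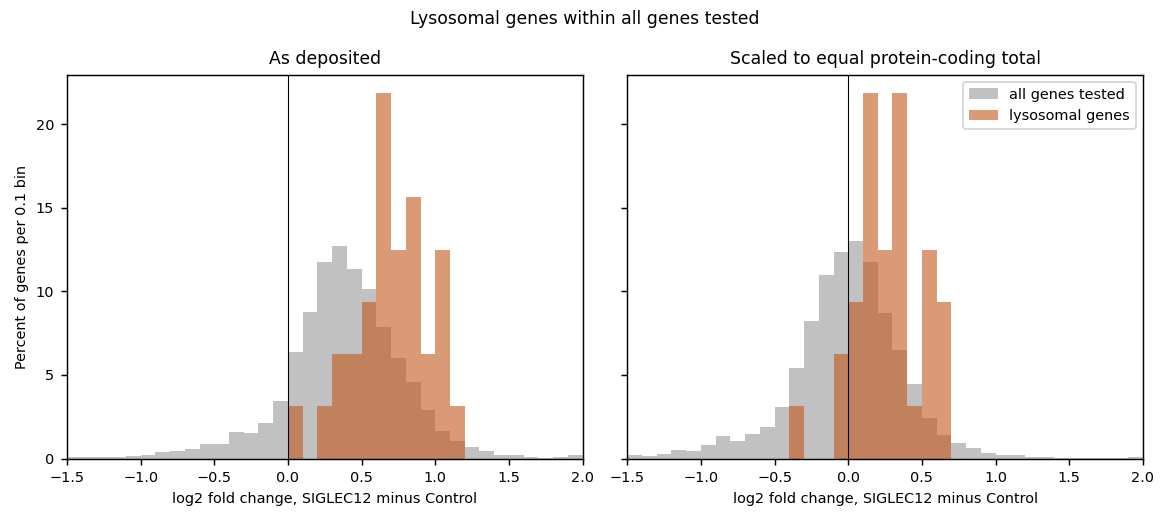
Distribution of log2 fold changes of all 10338 genes tested (grey) and of the 32 lysosomal genes among them (orange), in percent of genes per bin of 0.1, as deposited (left) and rescaled (right). The lysosomal genes sit to the right of the middle of all genes on both scales, with medians of 0.70 against 0.38 and 0.29 against 0.0088.

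Single samples and the filter moved these counts. Of the 32 genes in the fit of 10338, 27 were higher at an unadjusted p under 0.05 as deposited (limma). These 27 include Naglu, Arsb, Galns and Gm2a, which had passed the filter only through SIGLEC12, so their calls carry no weight. The count was 14 without SIGLEC12 2, 17 without SIGLEC12 3 and 24 without SIGLEC12 4, beside 2118, 2305 and 2362 of all 10338 genes. After rescaling the count of 5 became 3, 1 and 5 in the same order, beside 287, 198 and 426 of all genes. Leaving out Control 1 or Control 4 left 1 Control sample, so only medians are given. The median fold change of the 32 genes as deposited, 0.70, was 0.51 without Control 1 and 0.81 without Control 4. The median over all genes was then 0.26 and 0.52. Rescaled, the median of 0.29 became 0.17 without Control 1 and 0.38 without Control 4, beside -0.048 and 0.071 over all genes. With a filter of at least 5 TPM, 16 of the 18 genes left were higher at an unadjusted p under 0.05 as deposited, beside 49.8% of all genes. The median fold change of the 18 was 0.81, beside 0.60 over the 3476 genes that met this filter. Hexa, Man2b1, Lgmn and Scarb2 met it only through SIGLEC12, so their calls carry no weight.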

How the data were processed

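RNA of mouse colon tumors was sequenced, per the labels from stranded total RNA libraries, while the study's methods name an mRNA kit. The deposited table gives 1 value per gene and sample, which the authors made as log2(TPM + 1). The submitters' processing notes name kallisto 0.45.0 and GRCm38, and the study's methods name another kallisto version and a human reference. Whether technical replicates were averaged is not stated in the sources used here. TPM keeps no read depth, so no counting error is given. All 5 value columns were mapped to samples by their labels, and 0 were left unmapped. A further Control mouse, implied by the 3 mice per condition of the series description, was not analysed here. Nothing in the labels states that each sample came from a separate mouse, so p-values measure the spread between these samples, which may be technical.

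Groups were taken from the treatment labels. Genes with TPM of at least 1 in at least 2 samples (10338) were fitted in limma 3.58.1 (R 4.3.3, lmFit and eBayes with trend) with SIGLEC12 against Control and no covariate, and p-values were adjusted by Benjamini-Hochberg over all of them. The study named a count model, which log2 values cannot enter. Protein-coding genes and coordinates came from GENCODE M21 (GRCm38), matched by Ensembl ID for 98.3% of rows, and the rescaled fit brought each sample to the mean protein-coding TPM. Single values were also compared by an exact two-sided permutation test over the 10 ways to divide 5 samples into 2 and 3, written in Python 3.11.15 with numpy 2.4.6 and pandas 2.3.3, and plots were drawn with matplotlib 3.10.9. The fit was tested on simulated data. All 34 genes are named, and of the other lists up to 3 genes with the smallest unadjusted p. The genes and lists were chosen with earlier results of these data known, so no list was tested as a set. Alternatives were a pseudocount of 0.1, no filter, TPM of at least 5, 3 scalings, sample weights and leaving out each sample. The filter on a mean TPM of at least 0.5, leaving out samples after rescaling, and ratios on plain or rescaled TPM, were chosen after seeing the data. One marker list is not reported here.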

Additional observations from a re-analysis of the deposited data

How the results depend on the processing

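No paired analysis was possible because just 1 replicate number occurs in both groups. With 2 and 3 samples, a single sample weighs on every value, the table keeps no read depth, and p-values under 0.05 before adjustment carry no control over many genes. The 27 lysosomal genes counted as higher include Naglu, Arsb, Galns and Gm2a, which had passed the filter only through SIGLEC12. Hexa, Man2b1, Lgmn and Scarb2 met the filter of at least 5 TPM only through SIGLEC12. The number of lysosomal genes higher at an unadjusted p under 0.05, 27 as reported, was 16 with TPM of at least 5 (18 of them tested), 5 rescaled to protein-coding RNA, 4 with median-ratio scaling (and 1 lower) and 7 with quantile normalization. The median fold change, 0.70, was 0.29, 0.28 and 0.25 in these 3 scalings. Leaving out 1 sample gave 9 to 28 such genes, 0 to 14 at an adjusted p under 0.05 (14 without Control replicate 4) and, rescaled, 0 to 8. Leaving out Control replicate 1 or 4 left 1 Control sample with no spread of its own. Counts from these fits carry no weight, here and over all genes below. They set both ends of the ranges of higher genes and the highest counts at an adjusted p under 0.05. Over all genes they also set the highest count of lower genes. Leaving out a SIGLEC12 sample gave 14 to 24 higher lysosomal genes, beside 2118 to 2362 of all 10338 genes. Rescaled, it gave 1 to 5, beside 198 to 426. Over all genes, 3449 were higher and 94 lower. With no filter 575 were lower, and with TPM of at least 5 1732 were higher and 33 lower. The counts were 461 and 649 rescaled, 488 and 679 with median-ratio scaling, and 610 and 527 with quantile normalization. Leaving out 1 sample gave 1438 to 4416 higher, 75 to 278 lower and 0 to 1606 at an adjusted p under 0.05. The sign turned for Npc1 (-0.32 rescaled, -0.33 median-ratio, -0.28 quantile), Tfeb (-0.015 rescaled, -0.014 median-ratio), Gaa (-0.0018 rescaled, -0.0073 median-ratio) and Ctsd (-0.035 quantile). Leaving out 1 sample also turned Npc1 (from -0.093 to 0.27, lowest without Control replicate 1) and Tfeb (-0.089 to 0.68, lowest without Control replicate 1). Among rescaled values it turned Manba (-0.0027 to 0.44), Ctss (-0.035 to 0.63) and, both ways, Gaa (-0.16 to 0.16) and Tfeb (-0.37 to 0.34), all lowest without Control replicate 1, Ctsd (-0.14 to 0.25, lowest without Control replicate 4), Psap (-0.0040 to 0.24) and Tpp1 (-0.038 to 0.096), lowest without SIGLEC12 replicate 2, and Lamp2 (-0.094 to 0.66, lowest without SIGLEC12 replicate 3). The difference in the ratio of Lamp2 to Lamp1 then ranged from -0.27 to 0.39, Ctsa to Glb1 from -0.16 to 0.035, Fuca2 to Fuca1 from -0.57 to 0.18, Ctsd to Ctsb from -0.55 to 0.053 and Ctss to Ctsl from -0.31 to 0.52. On plain TPM the ratio of Gm2a to Hexa differed by 0.016, which the added 1 had made -0.24. The cause of the other turns was not tested. A pseudocount of 0.1 (26 genes higher) and sample weights (23) changed none of these directions.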

Other observations

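The autophagy genes, which feed cargo to the lysosome, were measured in the same fits. All 15 were tested, and 7 were higher at an unadjusted p under 0.05 as deposited and 0 lower (median 0.44), against 1 higher and 1 lower rescaled (median 0.033). Of all 10338 genes, 33.4% were higher and 0.909% lower as deposited (median 0.38). Rescaled, 4.46% were higher and 6.28% lower (median 0.0088). The 3 with the smallest p were Atg5, which takes part in conjugating LC3 to membranes, with a log2 fold change of 0.75 (0.37 rescaled), Gabarap (0.94, rescaled 0.40) and Gabarapl2 (0.88, rescaled 0.42), both of them LC3 relatives.

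Cystatins are inhibitors of the cathepsins. Of 6 genes 4 were tested, and all 4 were higher at an unadjusted p under 0.05 as deposited (median 0.77) and 2 rescaled (median 0.41), beside 33.4% and 4.46% of all 10338 genes. Stfa1 and Stfa2 were too low to be tested. Stfa2 went the other way, at 0.541 and 0.267 TPM in Control 1 and 4 and 0.222, 0.210 and 0.180 TPM in SIGLEC12 2, 3 and 4. The groups overlapped for Stfa1. Cst6, 1 of the 4 and 1 of the 2, had passed the filter only through SIGLEC12, so its count carries no weight. Stfa3, a stefin A, read 1.82 and 2.69 in Control 1 and 4 and 3.84, 3.86 and 3.73 in SIGLEC12 2, 3 and 4, a log2 fold change of 1.56 as deposited and 1.10 rescaled (unadjusted p = 0.00513, adjusted p = 0.456, limma). Every SIGLEC12 sample was above both Control samples. Cst3 differed by 0.84 (0.34 rescaled) and Cst6 by 0.70 (0.49 rescaled). The stefin A genes are close copies of each other, so reads shared among them make the value of Stfa3 uncertain.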
